A study of Homo sapiens with 22 samples.

Results

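The genes described here make cholesterol and fatty acids, or control that synthesis, and were measured in PC9, an established human lung adenocarcinoma cell line driven by a mutant epidermal growth factor receptor (EGFR). They were chosen by name: 32 genes, comprising 18 enzymes of the sterol branch, 5 regulators or sterol carriers (INSIG1, SREBF1, SREBF2, SCAP and STARD4), 8 enzymes of the fatty acid branch and the cholesterol exporter ABCA1. Of these, 31 were among the 17165 genes of the deposited table and 30 were tested among 15485. The expression of the fatty acid enzyme ACACA was not analysed here. STARD4, a carrier protein for sterols, lay below the filter on low values, at 0.02 to 0.13 CPM (counts normalised to the total of the library) with the value of 1 read in 19 of 22 libraries. The study sequenced polyadenylated RNA from 22 libraries in 11 groups of 2. Parental PC9 cells received vehicle, gefitinib (a reversible inhibitor of EGFR) or WZ4002 (an irreversible one). PC9-GR2 and PC9-GR3, called GR2 and GR3 from here on, were given vehicle or WZ4002, the gefitinib-tolerant PC9 population vehicle or gefitinib, and the WZ4002-tolerant population vehicle or WZ4002. Every treatment lasted 24 h, and both inhibitors are labelled 1 mM, a unit that is in doubt. All groups share the PC9 background, and the labels do not say how each derivative was obtained, whether it is 1 clone, or whether it was kept in drug before the vehicle treatment.

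Cholesterol is built from acetyl-CoA through mevalonate, the isoprenoid units, squalene and lanosterol, while fatty acid synthesis extends acetyl-CoA into palmitate that is then elongated and desaturated. Both branches are driven by the sterol regulatory element-binding proteins: the SREBF2 product mainly activates the sterol genes, and the SREBF1 product mainly the fatty acid genes. When membranes of the endoplasmic reticulum are rich in sterol, INSIG1 retains SCAP and its bound precursor there, and when sterol falls SCAP escorts the precursor to the Golgi to be cleaved. INSIG1 is itself a target of the pathway. ABCA1 is instead switched on by oxysterols through the liver X receptors.

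Levels are given in CPM for both libraries of a group, library 1 first. Differences are between group means of log2(CPM + 1), with the standard error (SE) of the fit and a Benjamini-Hochberg adjusted p from limma over all 15485 genes, and a gene is called where that p is under 0.05. Library totals estimated from the spacing of the values ran from 23.6 M to 50.4 M reads. The 7 epithelial markers checked were listed in all libraries (EPCAM at 107 to 409 CPM), while PTPRC, PECAM1, LYZ, CD68, APOB, ADIPOQ and FABP4, markers of leukocytes, endothelium, hepatocytes and adipocytes, were not in the table. Of the same lists ALB lay at 0.02 to 0.08 CPM, COL1A2 at 0.02 to 0.16, COL1A1 at 5.27 to 18.4 and the lipid-droplet gene PLIN1 at 0.15 to 9.21, and their part in the results was not tested. DUSP6, a target of signalling downstream of EGFR, was at 110.3 and 103 CPM in parental vehicle cells and at 0.34 and 0.35 under gefitinib and 0.43 and 0.44 under WZ4002, and lay lower with the inhibitor in every population. The labels do not say whether the libraries of a pair came from separate cultures, so the p-values rest on the spread between these libraries alone, and that spread may be technical. In bulk RNA, fewer cells expressing a gene and less of its RNA per cell cannot be told apart. Libraries of a pair stood furthest apart in the sterol genes in 2 groups. In parental cells under WZ4002 the median of library 2 minus library 1 over the 18 sterol enzymes was -1.36 on the log2(CPM + 1) scale, and 13 of them were at least 2-fold apart, against 4.44% of all genes. In GR3 vehicle cells the same median was -0.89, with 5 of 18 at least 2-fold apart against 4.06% of all genes. Smaller shifts ran opposite ways in WZ4002-tolerant cells. The median was 0.32 with vehicle (18 of 18 higher in library 2) and -0.39 with WZ4002 (17 of 18 lower). In both of these pairs 0 sterol enzymes were at least 2-fold apart. Counts that rest on the parental WZ4002 or GR3 vehicle pair are given with and without each library. Counts with a library left out, or with the spread estimated otherwise, come without the share of all genes. They show how far the calls depend on the setting and are not a result about these members.

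Gefitinib raised most of the cholesterol pathway in parental cells. Of the 18 sterol enzymes 14 rose and 0 fell, and all 18 were higher in both gefitinib libraries than in both vehicle libraries. Over all tested genes 23.5% rose and 21.8% fell, and 40.6% were higher in both gefitinib libraries. The median difference over the sterol enzymes was 1.03, against 0.04 over all genes. HMGCS1, which makes the precursor of mevalonate, was at 264 and 265 CPM in vehicle and 910.2 and 871 in gefitinib cells. Each gefitinib library thus lay more than 3 times above either vehicle library, and the difference was 1.75 ± 0.50 (adjusted p = 0.0106). SQLE, the squalene epoxidase and a slow step of the late pathway, went from 131 and 143 to 268 and 302 CPM, a difference of 1.05 ± 0.39 (adjusted p = 0.0368). Its groups did not overlap, but the step was smaller than that of HMGCS1. TM7SF2, a sterol reductase acting after lanosterol, had the largest difference of the branch, 2.14 ± 0.33 (adjusted p = 0.000128), from 19.5 and 27.4 to 97.0 and 114 CPM. The lowest adjusted p after it belonged to SC5D, the lathosterol desaturase, with 1.31 ± 0.24 (adjusted p = 0.000491). MVD (1.54) and IDI1 (1.39) of the isoprenoid steps, and LSS (1.39), which closes the sterol rings, were also among the 6 sterol enzymes of lowest p. The other risers were MSMO1 (1.6), CYP51A1 (0.98), NSDHL (0.77) and EBP (1.0), which trim and rearrange the sterol after ring closure, DHCR7 (0.92), a late sterol reductase, FDFT1 (0.72), which makes squalene, and ACAT2 (1.20), which joins acetyl-CoA units. Risers thus lay at the early, middle and late steps of the branch. The 4 sterol enzymes not called were MVK, PMVK, FDPS and HSD17B7, and PMVK, the phosphomevalonate kinase, had the smallest difference, 0.14 ± 0.14 (adjusted p = 0.446). Reads of ACAT2 are uncertain: 69.6% of its exon bases in the GENCODE 29 annotation also lie in exons of genes on the opposite strand, among them TCP1 and SOD2, and whether counting used the strand is not given. The share was 28.9% for FDPS, 19.9% for HMGCS1 and 10.6% for LSS.

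Among the regulators, INSIG1 rose from 101 and 97.0 to 353 and 384 CPM, a difference of 1.88 ± 0.38 (adjusted p = 0.000958). It was the only 1 of the 4 tested regulators that was called. SREBF2 had 0.45 ± 0.19 (adjusted p = 0.067), with both gefitinib libraries above both vehicle libraries. SREBF1 overlapped between the groups, at 234 and 258 CPM in vehicle and 202 and 271 in gefitinib cells. SCAP, the escort protein, was lower in both gefitinib libraries, with -0.24 ± 0.11 (adjusted p = 0.0715). In the fatty acid branch 1 of 7 tested enzymes rose and 1 fell, below the shares of all genes (23.5% and 21.8%). ACSS2, which makes acetyl-CoA from acetate, rose from 102 and 105 to 183 and 256 CPM (1.05 ± 0.34, adjusted p = 0.0185), and it was the 1 riser among 7 tested enzymes. ELOVL6, the elongase that extends palmitate, fell from 45.9 and 44.6 to 12.7 and 13.2 CPM (-1.73 ± 0.31, adjusted p = 0.00041). It was the 1 member that fell, and its groups lay more than 3-fold apart. FASN, the fatty acid synthase, was at 443 and 503 CPM in vehicle and 564 and 744 in gefitinib cells (0.46 ± 0.26, adjusted p = 0.171). SCD, the desaturase that makes oleate, was at 486 and 587 CPM with vehicle and 959.5 and 1421 with gefitinib (1.13 ± 0.46, adjusted p = 0.0573). Both genes were higher in both gefitinib libraries, and neither passed the test. SCD has a near-identical pseudogene, SCDP1, so its reads are uncertain. ABCA1 was at 40.1 and 57.0 CPM with vehicle and 87.8 and 82.3 with gefitinib, higher in both gefitinib libraries but not called (0.82 ± 0.43, adjusted p = 0.132). The 7 proliferation genes checked (such as MKI67) all fell in the same comparison, with a median of -2.59, and the part of this change in the results was not tested. In all 17 members were called here; the number was 8 without either vehicle library and 7 without gefitinib library 2, and 23 when the spread was estimated without the groups whose pairs stood apart.

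**Figure D1:**
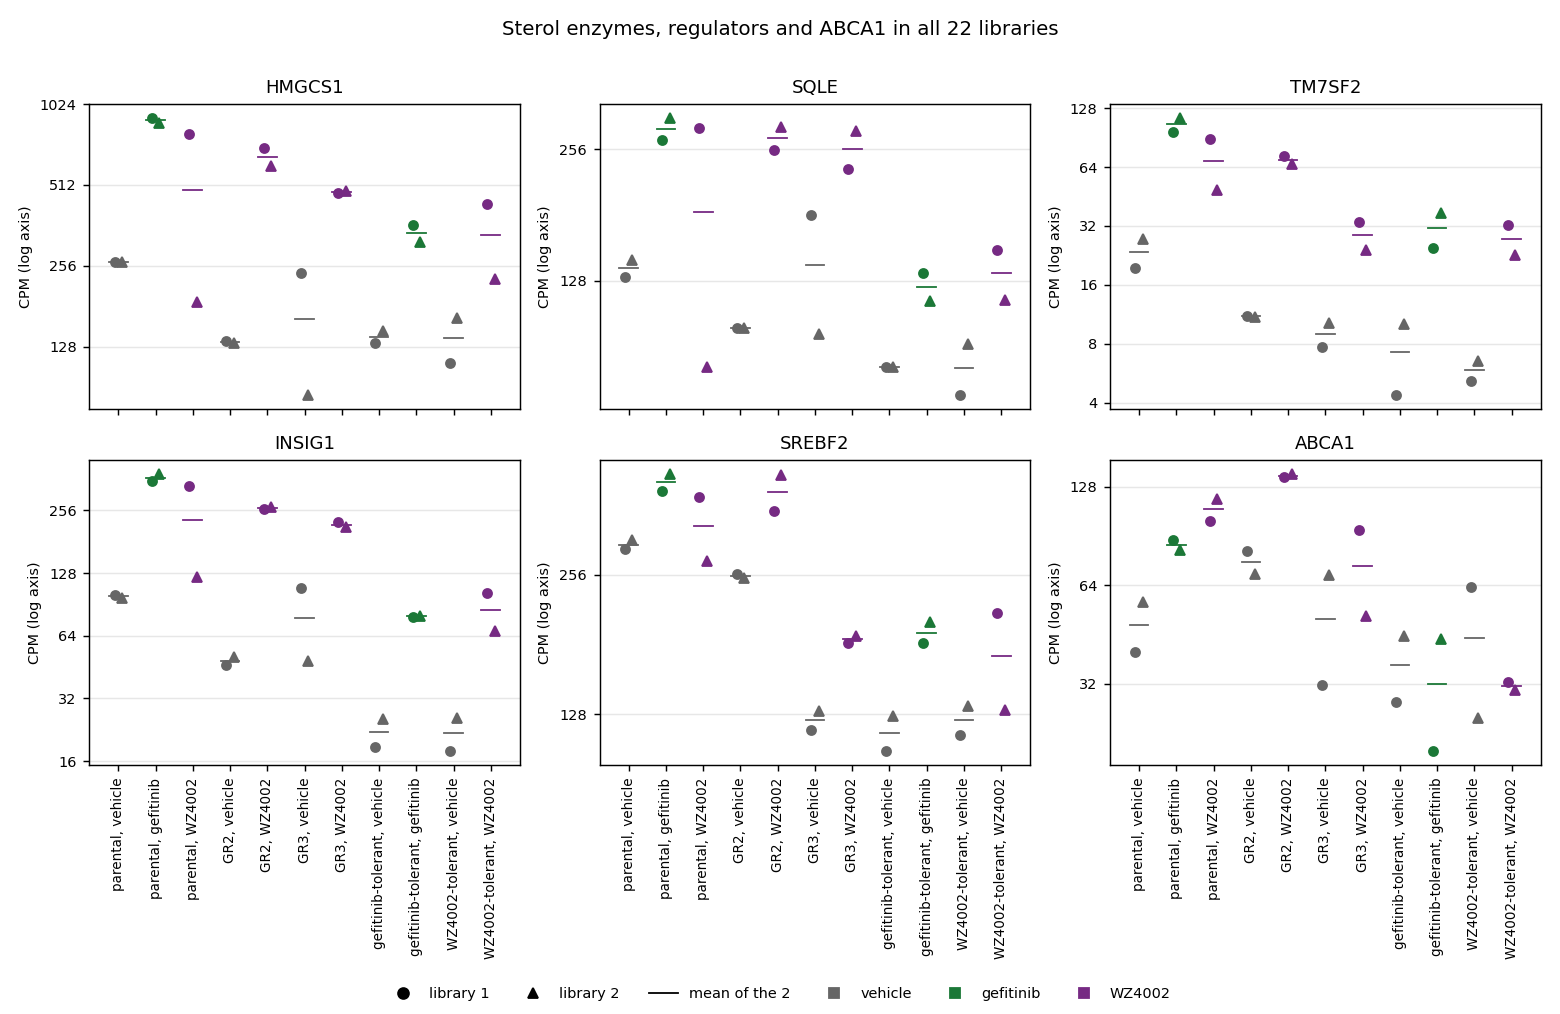
CPM on a log axis in each of the 22 libraries, by group, for the sterol enzymes HMGCS1, SQLE and TM7SF2, and for INSIG1, SREBF2 and ABCA1; circles are library 1, triangles library 2 and short lines their mean. In parental cells HMGCS1 lay at 264 and 265 CPM with vehicle and 910.2 and 871 with gefitinib, and the parental WZ4002 pair is split at 794 and 188.

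Promoters of 4 genes that rose with gefitinib, of SCD and of ELOVL6, which fell, are shown for their CCAAT boxes, the letters bound by NF-Y, a factor that works beside the sterol regulatory element-binding proteins. RefSeq promoter windows (250 bases before to 50 after a start, GRCh38.p14) were found for 28 of the 32 genes. A CCAAT box on either strand (CCAAT or ATTGG) lay in a window of 13 of the 15 sterol genes with an entry, 5 of 7 fatty acid genes and 3 of 5 regulators, against 39.7% of all 27305 genes. Over single windows the shares were 75% of 20 for the sterol enzymes and 34.6% of all 35116. The core of the sterol regulatory element, searched as TCACNCCAC on both strands, was found in 1 of the 38 members' windows, that of SREBF2 at position -133 from the start, and in 1.13% of all windows. The E box CACGTG lay in 15% of the sterol windows, in 0 of the 12 fatty acid windows and in 7.26% of all windows. A match describes letters in this window only. The stretches below are the parts of the 250 bases before a start that no GENCODE 29 exon covers, on the gene's strand, 5′ to 3′, with CCAAT boxes in capitals. They are HMGCS1 at chr5:43313513-43313662 (minus strand), MVD at chr16:88663162-88663297 (minus strand), MSMO1 at chr4:165327419-165327622 (plus strand), INSIG1 at chr7:155297628-155297775 (plus strand), SCD at chr10:100346983-100347123 (plus strand) and ELOVL6 at chr4:110198677-110198841 (minus strand).
HMGCS1: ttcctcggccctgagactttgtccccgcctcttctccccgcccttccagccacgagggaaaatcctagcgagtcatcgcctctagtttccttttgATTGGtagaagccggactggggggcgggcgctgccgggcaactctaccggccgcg
MVD: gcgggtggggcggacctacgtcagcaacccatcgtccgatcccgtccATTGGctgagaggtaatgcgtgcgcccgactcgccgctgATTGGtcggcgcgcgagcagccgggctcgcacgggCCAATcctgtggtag
MSMO1: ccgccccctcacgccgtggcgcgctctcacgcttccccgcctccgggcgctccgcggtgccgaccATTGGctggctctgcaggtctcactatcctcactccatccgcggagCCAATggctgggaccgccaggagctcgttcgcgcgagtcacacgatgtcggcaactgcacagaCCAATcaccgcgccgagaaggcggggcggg
INSIG1: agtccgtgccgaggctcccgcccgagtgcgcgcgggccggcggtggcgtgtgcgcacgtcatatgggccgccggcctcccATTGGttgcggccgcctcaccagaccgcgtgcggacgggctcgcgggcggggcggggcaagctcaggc
SCD: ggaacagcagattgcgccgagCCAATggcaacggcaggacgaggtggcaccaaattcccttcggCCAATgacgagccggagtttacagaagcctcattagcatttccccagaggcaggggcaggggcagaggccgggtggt
ELOVL6: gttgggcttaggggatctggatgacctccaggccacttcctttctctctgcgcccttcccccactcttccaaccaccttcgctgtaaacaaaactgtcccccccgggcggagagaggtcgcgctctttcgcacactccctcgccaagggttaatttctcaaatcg
MVD and MSMO1, both of which rose with gefitinib, hold 3 boxes each in these stretches and SCD holds 2. HMGCS1 and INSIG1 hold 1 each. ELOVL6 holds 0 in this stretch and in its whole window. The windows of CYP51A1, which rose, and of PMVK and FADS1, which were not called, hold 0 too. The windows of the sterol enzymes MVK, FDPS and HSD17B7, also not called with gefitinib, hold 5, 3 and 2. Whether the number of boxes goes with the response was not tested.

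The parental libraries under WZ4002 stood apart, and the sterol genes gave a different picture in each. HMGCS1 was at 794 and 188 CPM, SQLE at 286 and 81.4 and INSIG1 at 338 and 122, so library 1 lay above both vehicle libraries for all 3 genes, while in library 2 HMGCS1 and SQLE lay below both. With both libraries 4 members rose and 1 fell, against 25.1% and 22.3% of all genes, and 2 of 18 sterol enzymes were higher in both libraries than in both vehicle libraries, against 38.4% of all genes. The sterol risers were TM7SF2, at 89.3 and 48.8 CPM (1.47 ± 0.33, adjusted p = 0.00195), and SC5D (0.96 ± 0.24, adjusted p = 0.00428). INSIG1 rose by 1.03 ± 0.38 (adjusted p = 0.0342). ABCA1 rose as well, to 101 and 117 CPM (1.17 ± 0.43, adjusted p = 0.0346), and this gene did not share the split of the pair. ELOVL6 fell to 15.1 and 8.11 CPM (-1.93 ± 0.31, adjusted p = 0.000156). SCD was split as well, at 1429.7 and 376 CPM, and FASN was at 631 and 304. Without library 2 the members called were 15 higher and 1 lower, with 12 sterol enzymes higher and a sterol median of 0.95. Without library 1 they were 1 higher and 8 lower, with a sterol median of -0.43. Without vehicle library 1 there were 2 calls in all. With 1 library left, that library is assumed to vary like the other groups. DUSP6 was as low in library 1 as in library 2, at 0.43 and 0.44 CPM, while MKI67 was at 20.3 and 88.5 CPM and the 7 proliferation genes were higher in library 2 by a median of 1.88, each of the 7 in that direction. In the GR2 and GR3 pairs under WZ4002 the proliferation medians were -1.62 and -1.81 (library 2 minus library 1), and the sterol medians 0.14 and 0.12. In the GR3 vehicle pair the proliferation median was -1.18 and the sterol median -0.89. Whether the state of proliferation goes with the sterol split was not tested. Set directly against gefitinib, WZ4002 gave 0 called members by limma, where 0% of all genes were called; 14 members and 525 of all genes had an unadjusted p under 0.05. Both comparisons with vehicle share the vehicle libraries, and 20 members were lower than under gefitinib when WZ4002 library 1 was left out. When WZ4002 library 2 was left out instead, 0 members were called and 0 had an unadjusted p under 0.05, and the median over the 30 members went from -0.67 to -0.07.

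**Figure D2:**
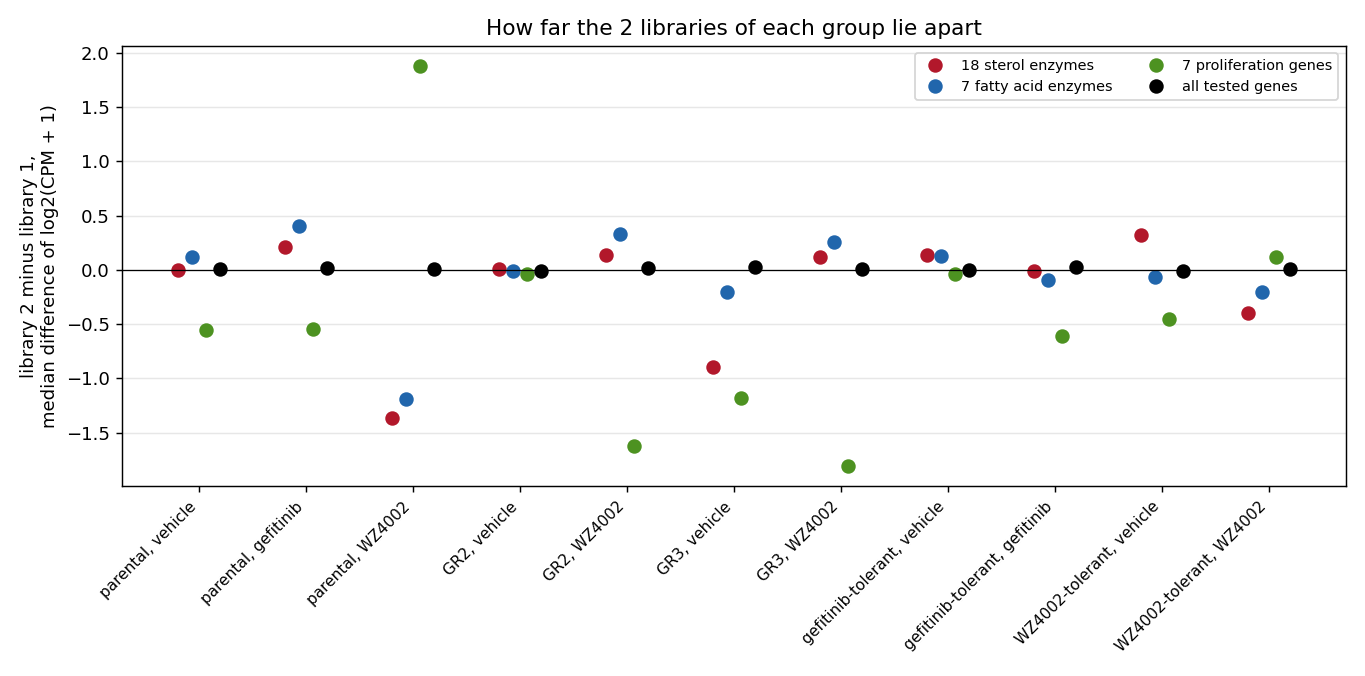
Library 2 minus library 1 of each group, as the median difference of log2(CPM + 1) over the 18 sterol enzymes, 7 fatty acid enzymes, 7 proliferation genes and all tested genes. The sterol median lies at -1.36 for parental cells under WZ4002 and -0.89 for GR3 vehicle cells, while the medians of all genes lie near 0.

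WZ4002 raised most of the sterol branch in GR2 cells. Of the 18 sterol enzymes 13 rose and 0 fell (median 1.17, against 0.01 over all genes), while 27.4% of all genes rose and 28.3% fell. All 18 were higher in both WZ4002 libraries than in both vehicle libraries, against 42.4% of all genes. HMGCS1 went from 134 and 133 CPM with vehicle to 704 and 599.8 with WZ4002 (2.28 ± 0.50, adjusted p = 0.00131). INSIG1 went from 46.2 and 50.6 to 261 and 267 CPM (2.42 ± 0.38, adjusted p = 6.64e-05). For these 2 genes the pairs were tight, and both genes were over 4-fold higher in every WZ4002 library than in either vehicle library. TM7SF2 had the largest difference, 2.55 ± 0.33 (adjusted p = 1.15e-05), and the desaturase SC5D (1.38), MVD (1.51), SQLE (1.43), LSS (1.29) and MVK (1.20) were among the other risers. IDI1 (1.35), MSMO1 (1.47), DHCR7 (1.14), CYP51A1 (1.02), FDFT1 (0.71) and NSDHL (0.68) rose as well, and ACAT2, PMVK, FDPS, HSD17B7 and EBP were not called. SQLE was at 99.9 and 100.2 CPM with vehicle and 255 and 288 with WZ4002. SREBF2 rose by 0.59 ± 0.19 (adjusted p = 0.0147), and SREBF1, at 148 and 147 CPM with vehicle and 168 and 193 with WZ4002, was higher in both libraries and not called. In the fatty acid branch FASN rose from 257 and 255 to 462 and 579 CPM (1.01 ± 0.26, adjusted p = 0.00425), and SCD from 358 and 345 to 704 and 1014 (1.26 ± 0.46, adjusted p = 0.0291). ELOVL6 fell from 36.4 and 34.9 to 20.2 and 12.2 CPM (-1.13 ± 0.31, adjusted p = 0.00575). With 2 of 7 higher and 1 of 7 lower, this branch lay near or below the shares of all genes. The other 4 tested enzymes of it (ACLY, ACSS2, FADS1 and FADS2) were not called. ABCA1 was at 81.3 and 69.3 CPM with vehicle and 137 and 140.1 with WZ4002 (0.88 ± 0.43, adjusted p = 0.0949), its highest level of the 11 groups. All 7 proliferation genes fell (median -2.13), whose part was not tested. Each of the 7 was also at least 2-fold apart between the WZ4002 libraries, with a median of -1.62 for library 2 minus library 1. The 18 members called became 10 without WZ4002 library 2.

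In GR3 cells 7 of 18 sterol enzymes rose with WZ4002 and 0 fell, with a median of 0.90 against 0.02 over all genes; 12.1% of all genes rose and 9.87% fell. In 16 of the 18 both WZ4002 libraries were higher, against 30.4% of all genes. HMGCS1 was at 239.9 and 84.6 CPM with vehicle, a pair that stood apart, and at 479 and 485 with WZ4002 (1.75 ± 0.50, adjusted p = 0.0218). INSIG1 was at 108 and 48.3 CPM with vehicle and 225 and 213 with WZ4002 (1.58 ± 0.38, adjusted p = 0.00794). The vehicle libraries lay apart for both genes, and even the higher one was below both WZ4002 libraries. TM7SF2 (1.57), SC5D (0.91), LSS (1.22), MVD (1.27), MSMO1 (1.55) and IDI1 (1.16) were the other risers of the branch, and SREBF2 rose by 0.58 ± 0.19 (adjusted p = 0.0395). FASN rose from 408 and 367 to 670.2 and 707 CPM (0.83 ± 0.26, adjusted p = 0.0348), the 1 call among the 7 fatty acid enzymes. SCD was at 510.5 and 444 CPM with vehicle and 927 and 1162 with WZ4002 (1.12 ± 0.46, adjusted p = 0.0919). ELOVL6 was at 40.3 and 19.6 CPM with vehicle and 30.7 and 26.0 with WZ4002, a difference of 0.00 ± 0.31 (95% interval -0.65 to 0.66). ACSS2 overlapped too, at 59.8 and 82.9 CPM with vehicle and 65.8 and 82.1 with WZ4002, as did SREBF1 and ABCA1. The 7 proliferation genes had a median of -1.38 with 0 called. The 10 members called fell to 2 without vehicle library 2, to 3 without WZ4002 library 1, to 2 without WZ4002 library 2 and to 2 when only these 4 libraries were fitted. Without vehicle library 1 they numbered 12. The sterol median of 0.90 was 1.35 without vehicle library 1 and 0.43 without vehicle library 2, and FASN was not called without either of them.

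In both tolerant populations the inhibitor raised INSIG1 and TM7SF2 and lowered ELOVL6, and few other members were called. Gefitinib raised 1 of 18 sterol enzymes in gefitinib-tolerant cells and WZ4002 raised 5 of 18 in WZ4002-tolerant cells, and 0 fell in either. Over all genes 15.2% rose and 13.6% fell in the first comparison, and 17.0% rose and 15.6% fell in the second. Sterol enzymes were higher in both drug libraries for 17 of 18 (35.2% of all genes) and for 16 of 18 (36.1% of all genes), and their median differences were 0.61 and 0.72, against 0.01 and 0.03 over all genes. TM7SF2 was at 4.38 and 10.1 CPM in gefitinib-tolerant vehicle cells and 24.7 and 37.5 with gefitinib (2.02 ± 0.33, adjusted p = 0.000804). In WZ4002-tolerant cells it was at 5.15 and 6.56 CPM with vehicle and 32.4 and 22.6 with WZ4002 (2.04 ± 0.33, adjusted p = 0.000645). No library of either pair overlapped. HMGCS1 went from 132 and 146 to 364 and 315 CPM in the gefitinib-tolerant population (1.28 ± 0.50, adjusted p = 0.0685) and from 111 and 164 to 436 and 229 in the WZ4002-tolerant one (1.22 ± 0.50, adjusted p = 0.075). Neither passed the test, although the libraries did not overlap. The other WZ4002 risers were SC5D (0.94), MSMO1 (1.43), IDI1 (1.13) and FDFT1 (0.72), the last of which makes squalene. INSIG1 rose in both, from 18.7 and 25.6 to 78.8 and 79.7 CPM (1.81 ± 0.38, adjusted p = 0.00315) and from 17.9 and 25.7 to 103 and 67.7 (1.91 ± 0.38, adjusted p = 0.00197). SREBF2 rose in gefitinib-tolerant cells (0.72 ± 0.19, adjusted p = 0.0115). In the WZ4002-tolerant cells its libraries overlapped. FASN ran the other way, as did ACLY and ELOVL6 in both populations and FADS1 in the WZ4002-tolerant one. FASN fell in WZ4002-tolerant cells, from 257 and 202 to 166 and 107 CPM (-0.76 ± 0.26, adjusted p = 0.0375). In gefitinib-tolerant cells FASN was at 216 and 236 with vehicle and 175 and 164 with gefitinib (-0.41 ± 0.26, adjusted p = 0.255). ACLY, not called, went from 220 and 210 to 164 and 153 CPM in gefitinib-tolerant cells. In WZ4002-tolerant cells ACLY went from 205 and 214 to 175 and 152 CPM. In each population 2 of 7 fatty acid enzymes were higher in both drug libraries (35.2% and 36.1% of all genes). ELOVL6 fell in both, from 59.3 and 48.9 to 28.5 and 21.6 CPM (-1.09 ± 0.31, adjusted p = 0.0167) and from 73.1 and 48.8 to 20.1 and 20.2 (-1.52 ± 0.31, adjusted p = 0.00232). FADS2, a desaturase of polyunsaturated fatty acids, rose in gefitinib-tolerant cells by 0.51 ± 0.18 (adjusted p = 0.0383). SCD overlapped between drug and vehicle in both populations. Proliferation genes had medians of -0.84 and -1.03, with 0 of 7 called in either. The counts of members called, 5 and 8, became 21 and 19 when the spread was estimated without the groups whose pairs stood apart. They fell to 1 and 2 without vehicle library 1 of the respective population, to 2 without gefitinib library 2 of the first, and to 4 without WZ4002 library 1 of the second.

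In vehicle-treated tolerant cells genes of both branches were lower than in parental vehicle cells, SCD and ACSS2 furthest. All 4 comparisons of vehicle cells share the 2 parental vehicle libraries. In gefitinib-tolerant cells 0 members rose and 11 fell, against 9.39% and 9.64% of all genes, and in WZ4002-tolerant cells 0 rose and 13 fell, against 8.72% and 9.73%. Sterol enzymes lower in both libraries numbered 17 of 18 (29.1% of all genes) and 18 of 18 (30.1% of all genes), with medians of -0.72 and -0.85. SCD was at 486 and 587 CPM in parental cells, at 55.6 and 97.5 in gefitinib-tolerant and at 70.7 and 77.8 in WZ4002-tolerant cells. These are the largest differences of any member, -2.84 ± 0.46 (adjusted p = 0.00063) and -2.83 ± 0.46 (adjusted p = 0.000721). ACSS2 fell by a similar amount, to 16.3 and 21.2 CPM in gefitinib-tolerant and 19.6 and 18.7 in WZ4002-tolerant cells (-2.42 ± 0.34, adjusted p = 0.000194, and -2.38 ± 0.34, adjusted p = 0.000266). SREBF1 went from 234 and 258 CPM to 45.7 and 65.3 CPM in gefitinib-tolerant and 87.0 and 57.6 in WZ4002-tolerant cells (-2.15 ± 0.25, adjusted p = 4.68e-05, and -1.78 ± 0.25, adjusted p = 0.000266), and INSIG1 to 18.7 and 25.6 CPM in gefitinib-tolerant and 17.9 and 25.7 in WZ4002-tolerant cells (-2.13 and -2.15). Every library of both tolerant populations lay below the parental ones for these 4 genes. FASN was at 216 and 236 CPM in gefitinib-tolerant and 257 and 202 in WZ4002-tolerant cells (-1.06 ± 0.26 and -1.05 ± 0.26), and SREBF2 fell by 1.35 ± 0.19 and 1.25 ± 0.19. FADS1 and FADS2, which desaturate polyunsaturated fatty acids, fell in both populations (FADS1 -1.06 and -0.88, FADS2 -0.67 and -0.70). So 5 of 7 fatty acid enzymes were called in each. One exception of the branch was ACLY, which splits citrate into acetyl-CoA. It was at 218 and 213 CPM in parental, 220.2 and 210.2 in gefitinib-tolerant and 205 and 214 in WZ4002-tolerant cells and was not called. ELOVL6, the other exception, was above the parental level in all 4 tolerant libraries without passing the test (0.25 and 0.39). The sterol enzymes called in both populations were TM7SF2 (-1.64 and -1.82), MVK (-1.12 and -1.44) and FDFT1 (-0.87 and -0.93). DHCR7 (-1.01) and HSD17B7 (-1.12) were added in the WZ4002-tolerant one. HSD17B7 has a near-identical copy and is uncertain. ABCA1 overlapped the parental level in both. Counts of members called were 21 and 24 when the spread was estimated without the groups whose pairs stood apart. They were 6 in both comparisons without parental library 2, 5 without gefitinib-tolerant library 1, 8 in WZ4002-tolerant cells without parental library 1, 7 without WZ4002-tolerant library 1 and 8 without WZ4002-tolerant library 2.

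**Figure D3:**
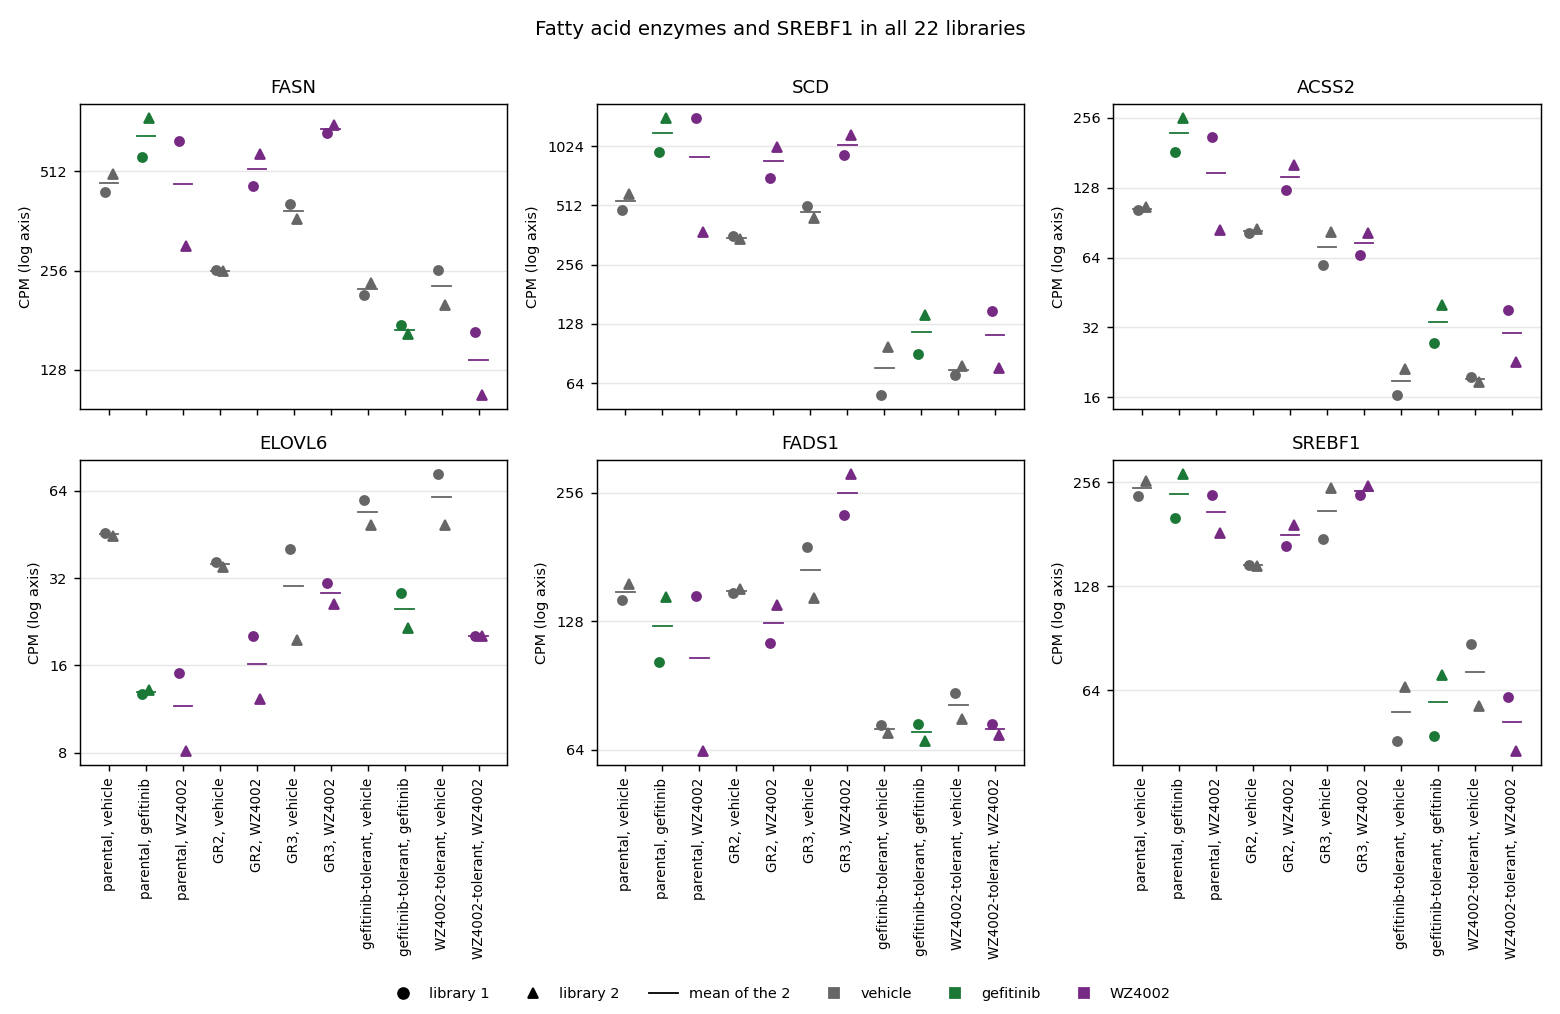
CPM on a log axis in each of the 22 libraries, by group, for 5 fatty acid enzymes and SREBF1; circles are library 1, triangles library 2 and short lines their mean. All 8 libraries of the tolerant populations lie below all parental vehicle libraries for FASN, SCD, ACSS2, FADS1 and SREBF1; ELOVL6 does not share this order, at 59.3 and 48.9 CPM in gefitinib-tolerant against 45.9 and 44.6 in parental vehicle cells.

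Vehicle-treated GR2 and GR3 cells had a few members called below the parental level and 0 called above it. The median difference over the 30 members was -0.36 in GR2 and -0.59 in GR3, against 0.02 over all genes in each. In GR2 vehicle cells 0 members rose and 4 fell (8.98% and 7.76% of all genes): IDI1, the isomerase of the isoprenoid unit (-1.45 ± 0.40, adjusted p = 0.0222), TM7SF2 (-1.0 ± 0.33, adjusted p = 0.0477), SCAP (-0.48 ± 0.11, adjusted p = 0.00628) and FASN (-0.88 ± 0.26, adjusted p = 0.0325). IDI1 was at 16.2 and 16.0 CPM against 47.9 and 43.4 in parental cells. HMGCS1, at 134 and 133 CPM, and INSIG1, at 46.2 and 50.6, lay below both parental libraries, but did not pass the limma test (differences of -0.98 and -1.02, adjusted p = 0.201 and 0.0765). In both libraries 16 of 18 sterol enzymes were lower, against 32.0% of all genes. The 4 calls became 13 with the spread estimated without the groups whose pairs stood apart, and 1, 1, 0 and 1 without parental library 1, parental library 2, GR2 library 1 and GR2 library 2. In GR3 vehicle cells 0 rose and 5 fell (9.77% and 11.1% of all genes), and 12 of 18 sterol enzymes were lower in both libraries, against 26.3% of all genes. NSDHL, a sterol dehydrogenase, was at 41.7 and 25.8 CPM against 98.6 and 88.7 in parental cells (-1.48 ± 0.24, adjusted p = 0.000399), and SREBF2 at 118 and 129.9 against 290.4 and 304 (-1.25 ± 0.19, adjusted p = 0.000244). Both GR3 libraries were below both parental libraries for these, and NSDHL, SREBF2 and TM7SF2 were also called without GR3 library 2. CYP51A1, the lanosterol demethylase (-1.07), and MVK, the mevalonate kinase (-1.02), were not called without it. SREBF1 (176 and 247 CPM) and SCD (510.5 and 444 CPM) overlapped the parental level. The sterol median of -0.75 was -1.21 without GR3 library 1 and -0.22 without GR3 library 2. The 5 calls were 12 without GR3 library 1, 3 without GR3 library 2, 3 without parental library 1 and 2 without parental library 2.

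The branches reached their highest and lowest levels in different groups. By group mean, 17 of 18 sterol enzymes were highest in parental cells under gefitinib, the exception being PMVK, which was highest in GR3 vehicle cells. All 18 were lowest in vehicle cells of a derived population: 8 in WZ4002-tolerant, 4 in GR2, 4 in GR3 and 2 in gefitinib-tolerant cells. In the fatty acid branch ACLY, ACSS2 and SCD were highest in parental cells under gefitinib, and FASN, FADS1 and FADS2 in GR3 cells under WZ4002. ELOVL6 was highest in WZ4002-tolerant vehicle cells and lowest in parental cells under WZ4002, while the other 6 were lowest in a tolerant population. Neighbours in these orders often overlap between libraries, so the orders are a description.

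Branch medians per library set the sterol enzymes beside the fatty acid enzymes, each gene taken relative to its parental vehicle mean. Parental gefitinib libraries had sterol medians of 0.88 and 1.20 and fatty acid medians of 0.26 and 0.61. In GR3 cells under WZ4002 the order was the other way, at 0.17 and 0.21 for sterol and 0.51 and 0.58 for fatty acid enzymes. GR3 vehicle libraries had this order too, at -0.22 and -1.21 for sterol and -0.07 and -0.32 for fatty acid enzymes. From vehicle to WZ4002 the median difference in GR3 was 0.90 for sterol and 0.44 for fatty acid enzymes. Gefitinib-tolerant cells had sterol medians of -0.81 and -0.67 with vehicle and 0.03 and -0.06 with gefitinib, so the sterol branch lay near the parental vehicle level under drug. Their fatty acid medians were -1.03 and -1.0 with vehicle and -1.02 and -1.15 with gefitinib, about the same with and without drug. Single enzymes moved both ways in this response, from -1.09 for ELOVL6 to 0.80 for ACSS2, the latter not called. WZ4002-tolerant cells showed the same separation: sterol medians went from -1.02 and -0.63 to 0.18 and -0.28, and fatty acid medians from -0.83 and -0.98 to -1.13 and -1.12. The gap between the branches was 1.05 and 1.09 in gefitinib-treated tolerant cells, against 0.62 and 0.59 in parental cells under gefitinib. In WZ4002-treated tolerant cells it was 1.31 and 0.85. Under the same drug it was 0.53 and 0.20 in parental cells, the split pair, 0.66 and 0.43 in GR2 and -0.34 and -0.38 in GR3 cells. In vehicle cells of both tolerant populations the gap ran from -0.18 to 0.35. These medians are a description of the list and were given no test.

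**Figure D4:**
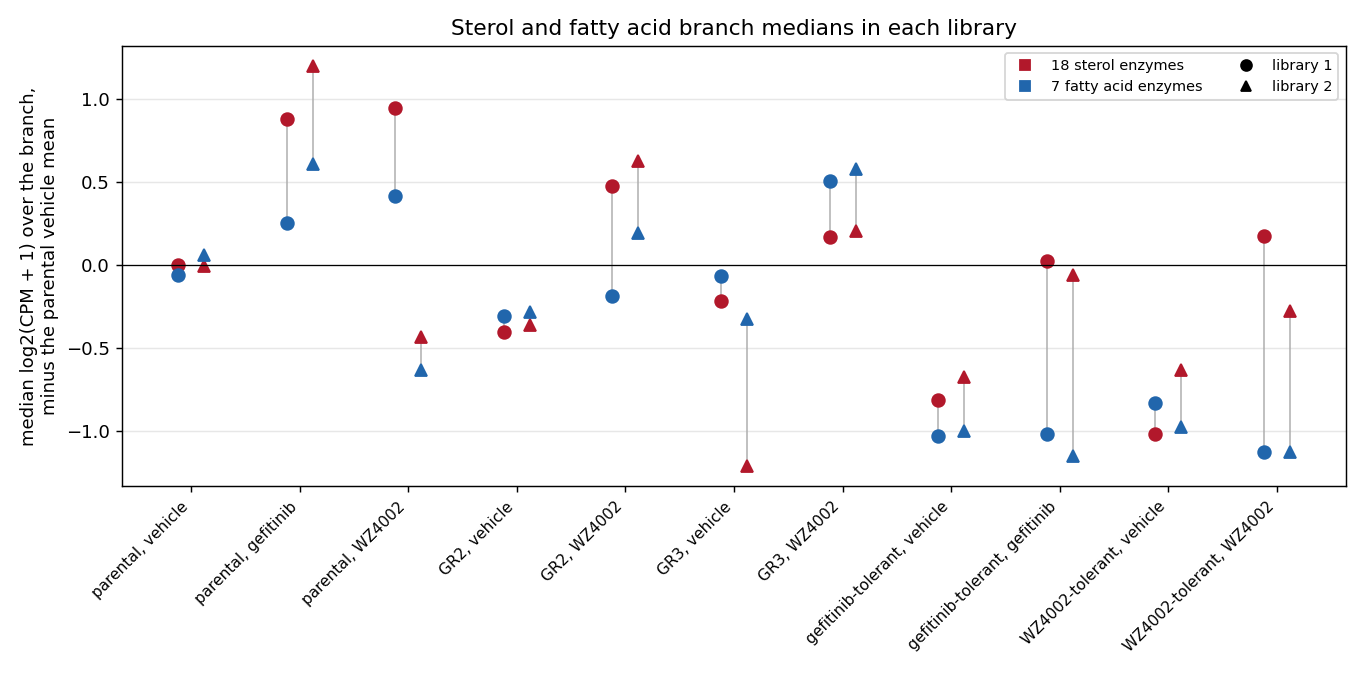
Median over the 18 sterol (red) and 7 fatty acid (blue) enzymes of log2(CPM + 1) minus the parental vehicle mean, for each of the 22 libraries; a grey line joins the branches within a library. In both tolerant populations under drug the sterol medians lie between -0.28 and 0.18 and the fatty acid medians between -1.15 and -1.02.

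Whether a response differed between populations was tested on the difference itself. For gefitinib in tolerant against parental cells 0 members were called (2.0% of all genes); limma gave 1 member with an unadjusted p under 0.05, FASN at -0.87 ± 0.37 (adjusted p = 0.271). The interval for HMGCS1, -1.98 to 1.04, is wide, so equal responses are not shown. For WZ4002, GR2 against parental cells gave 0 calls (6.79% of all genes; 10 members at an unadjusted p under 0.05), and WZ4002-tolerant against parental cells gave 0 (4.49%; 1 member). GR3 against GR2 also gave 0 (13.6%; 2 members), and gave 1 higher without GR3 vehicle library 1 and 1 lower without GR3 vehicle library 2. These counts come from limma. The contrasts with parental WZ4002 cells rest on the split pair: without its library 1 they gave 18 members for GR2, 13 for GR3 and 9 for WZ4002-tolerant cells, and without its library 2 they gave 0, 0 and 1. GR3 against parental cells gave 1 call (1.29% of all genes), ELOVL6. Its WZ4002 response was -1.93 in parental and 0.00 in GR3 cells, a difference of 1.94 ± 0.44 (adjusted p = 0.0405). GR3 libraries under vehicle stood apart for this gene, as shown above. It was still called without parental WZ4002 library 1 (2.35) or GR3 vehicle library 1 (2.44). It was not called without any other 1 of the 8 libraries, where the difference ran from 1.44 to 2.05, nor with no filter, with a pseudocount of 0.1 or when only the 8 libraries were fitted. FASN was compared between the populations in which it moved in opposite directions, in 2 contrasts chosen after its values were seen. Its WZ4002 response in GR2 minus that in WZ4002-tolerant cells was 1.78 ± 0.37 (adjusted p = 0.00407), the 1 member called in that contrast (16.6% of all genes). In GR3 minus WZ4002-tolerant cells it was 1.59 ± 0.37 (adjusted p = 0.0568), where limma called 0 members (0.995% of all genes; 2 members at an unadjusted p under 0.05). Without GR3 vehicle library 1 this contrast called 2 members, without GR3 vehicle library 2 it called 0, and without WZ4002-tolerant WZ4002 library 1 it called 1. SCD, which stands beside FASN in the pathway, had 0.75 ± 0.65 and 0.61 ± 0.65 in the same contrasts.

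**Figure D5:**
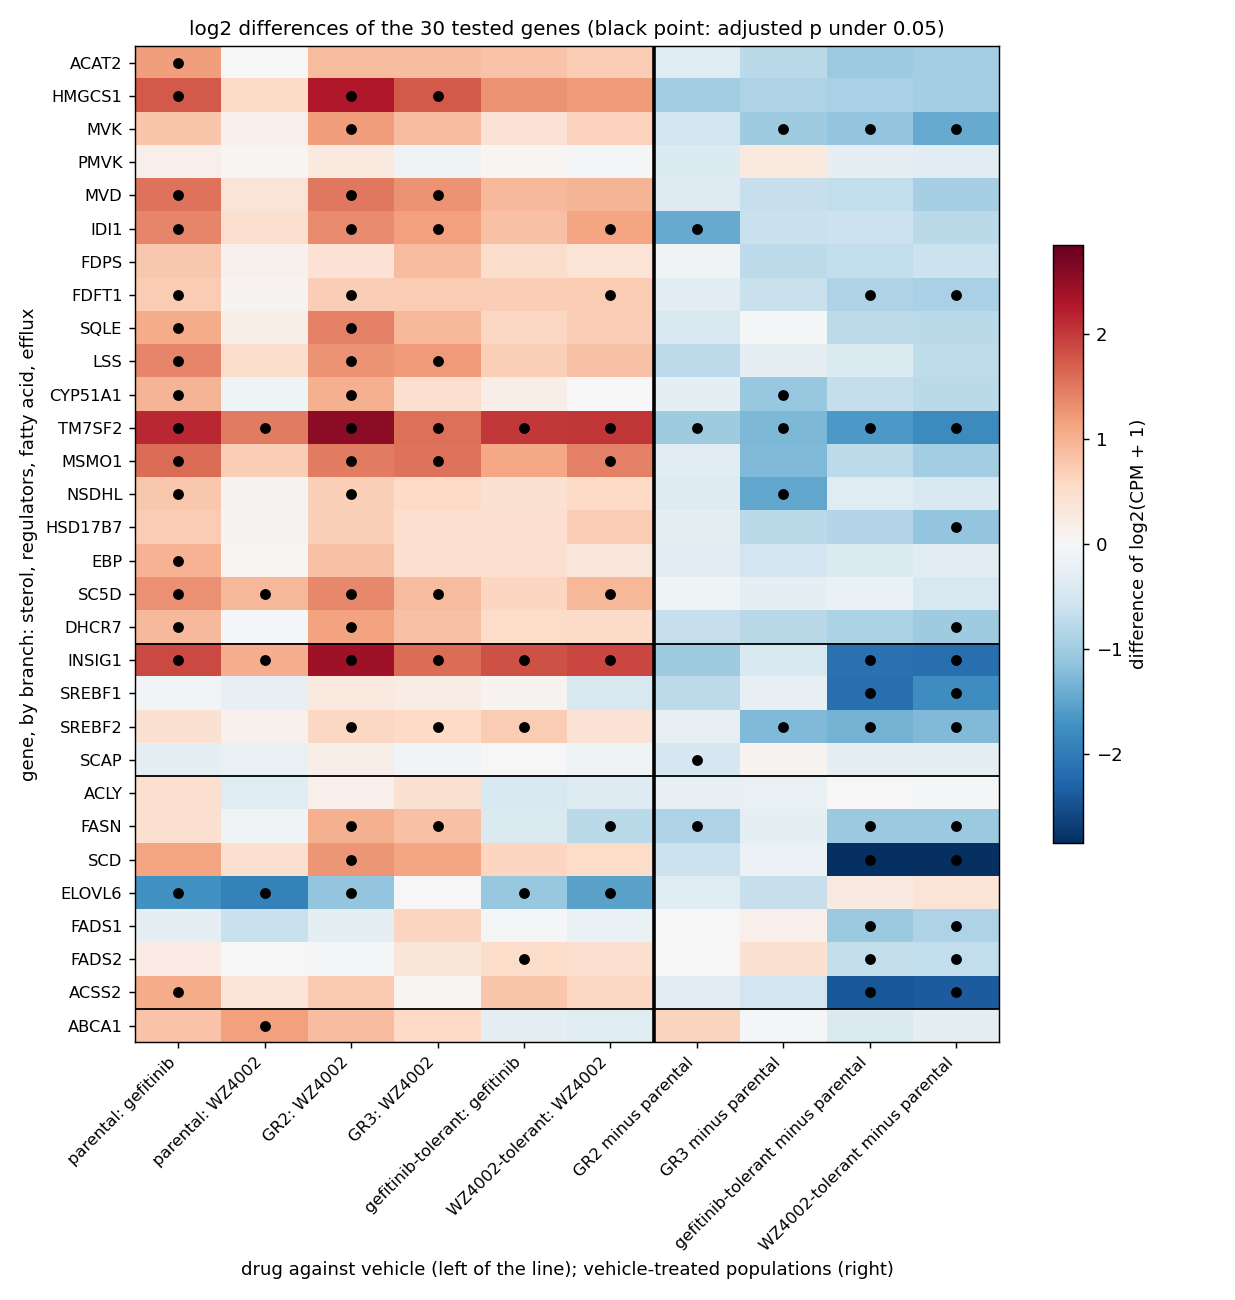
Colour gives the difference of log2(CPM + 1) for the 30 tested genes (rows, by branch) in 6 drug responses (left of the line) and 4 comparisons of vehicle-treated populations (right); a black point marks an adjusted p under 0.05. INSIG1 and TM7SF2 carry a point in all 6 responses, ELOVL6 falls in 5 of them, and SCD has the strongest drop on the right, -2.84 and -2.83. The share of all genes called in as many responses was not computed.

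Across populations INSIG1 and TM7SF2 were called higher in all 6 drug responses, and no other member was. ELOVL6 was lower in 5 of the 6, GR3 being the exception. In a single response 12.1% to 27.4% of all genes were called higher and 9.87% to 28.3% lower. The share of all genes called in several responses was not computed. Counts over the 6 responses therefore describe these members only. INSIG1 differences ran from 1.03 in parental cells under WZ4002 to 2.42 in GR2 cells. SREBF1 was called in 0 of the 6 responses by limma, and had an unadjusted p under 0.05 in 0 of them as well. The other members called in 0 of the 6 were PMVK, FDPS and HSD17B7 of the sterol branch, ACLY and FADS1 of the fatty acid branch, and SCAP. Correlations over the 11 group means, which share library scaling and the treatments, describe who moved with whom. HMGCS1 was closest to MVD (r = 0.98) and SC5D (r = 0.96) within the list, and FASN to SREBF1 (r = 0.92) and SCD (r = 0.91). HMGCS1 with FASN gave r = 0.54, and HMGCS1 with ELOVL6 gave r = -0.78. Outside the list the 5 genes most like HMGCS1 were PCYT2 (r = 0.98), an enzyme of phosphatidylethanolamine synthesis, ERG28 (r = 0.96), a scaffold of sterol enzymes, NEK8, QPRT and OST4 (each r = 0.96). Those most like FASN were SCDP1 (r = 0.94), which may hold reads of SCD, CCR5AS, IRF2BPL, MLXIPL, a carbohydrate-responsive factor of lipid synthesis (each r = 0.94), and IGFBP2 (r = 0.93).

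Other genes of the pathway were counted from lists of their own. Of 7 genes that control the sterol regulatory element-binding proteins, 2 rose and 2 fell in parental cells under gefitinib, 3 and 1 under WZ4002, and 3 and 2 in GR2 cells. Over all genes 23.5% rose and 21.8% fell in the first, 25.1% and 22.3% in the second and 27.4% and 28.3% in the third. The lowest p in each belonged to INSIG2, the relative of INSIG1, which rose by 0.87 ± 0.15 (adjusted p = 0.000261), 1.06 ± 0.15 (adjusted p = 4.88e-05) and 0.76 ± 0.15 (adjusted p = 0.000457). MBTPS1, the first protease of the cleavage, rose by 0.54, 0.50 and 0.60. In GR3, gefitinib-tolerant and WZ4002-tolerant cells the counts under drug were 1 and 1, 2 and 2, and 2 and 3 for higher and lower. The shares of all genes were 12.1% and 9.87% in GR3, 15.2% and 13.6% in gefitinib-tolerant, and 17.0% and 15.6% in WZ4002-tolerant cells. MBTPS1 had the lowest p in these 3 responses (0.50, 0.53 and 0.54). Of 11 genes of sterol transport, storage and sensing 2 rose and 0 fell with gefitinib in parental cells (23.5% and 21.8% of all genes), and the lowest p belonged to LPCAT3, which places polyunsaturated chains in phospholipids (1.01 ± 0.16, adjusted p = 0.000146). In vehicle cells 6 of the 11 were lower in each tolerant population (9.64% and 9.73% of all genes), among them ABCG1, a sterol exporter (-2.24 and -1.95), and NR1H3, the liver X receptor alpha (-0.79 and -0.84). Of 14 genes of acyl and NADPH supply, 4 rose and 3 fell with gefitinib in parental cells, near the shares of all genes (23.5% and 21.8%), and 6 rose and 6 fell with WZ4002 in GR2 cells (27.4% and 28.3% of all genes). IDH1, a cytosolic source of NADPH, rose in these by 1.46 and 2.64, and in vehicle-treated tolerant cells was lower (-2.51 and -2.26). ACSL3, which activates long-chain fatty acids, fell by 1.72 and 1.87. Of 7 genes of the isoprenoid side branches 1 rose and 2 fell with gefitinib in parental cells (23.5% and 21.8% of all genes). PDSS1, which builds the ubiquinone tail, had -1.49 ± 0.31 (adjusted p = 0.00117) and fell in all 6 drug responses.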

How the data were processed

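Polyadenylated RNA was sequenced from 22 libraries, and the labels name a directional library kit. The deposited values are CPM per gene that the authors made, per the submitters' processing notes with STAR, HTSeq and hg19; versions and the strand setting are not given in the sources used here. The 32 genes and the other gene lists were chosen with earlier results of these data known, and 1 gene of the other lists is not reported here. CPM was changed to log2(CPM + 1), genes with at least 1 CPM in at least 2 libraries were kept (15485 of 17165), and 11 group means were fitted with limma 3.58.1 (trend, R 4.3.3), with 11 residual degrees of freedom, Benjamini-Hochberg adjustment per comparison and a threshold of 0.05. There were 18 comparisons, 2 of them chosen after FASN had been seen. No count test was run, since the table holds no counts. The median-of-ratios, filter, pseudocount, block and left-out-library alternatives are described with the closing observations. By the rule for named genes, HMGCS1, SQLE, INSIG1, SREBF1, FASN, SCD, ACSS2 and ABCA1 may be named anywhere, beside up to 6 members of a branch with the lowest p, members that went against their branch, those of highest and lowest change, and up to 3 genes of lowest p from each other list; other members are named where a count is small, after their values were seen. The fit was tested on simulated data with independent normal noise and, for each gene, the same spread in every group. Pairs that stand apart in many genes together were not simulated, so that test does not cover them. Promoter windows came from RefSeq (GRCh38.p14) and exon overlaps from GENCODE 29. The listed genes held 54.6% to 64.2% of a library's CPM. Library totals were estimated from the spacing of low values, and precision is limited by 2 libraries a group.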

Additional observations from a re-analysis of the deposited data

Results flagged for a closer look

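For 2 genes the test of the difference in drug response between populations passed. ELOVL6, the fatty acid elongase, had a WZ4002 response 1.94 higher in GR3 than in parental cells on the log2(CPM + 1) scale (limma, adjusted p = 0.0405). The GR3 vehicle pair and the parental WZ4002 pair, which stood apart in the sterol genes, both enter that value. The ELOVL6 call was lost with no filter, with a pseudocount of 0.1 and when only the libraries of the comparison were fitted. It was also lost without most of the single libraries, as given above. FASN, the fatty acid synthase, had a WZ4002 response 1.78 higher in GR2 than in WZ4002-tolerant cells (limma, adjusted p = 0.00407), with a rise in both GR2 libraries and a fall in both WZ4002-tolerant libraries against their vehicle. This contrast was chosen after the values of FASN were seen. It was still called with each of its 8 libraries left out in turn, between 1.46 and 2.09.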

How the results depend on the processing

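With 1 library of a comparison left out at a time, the number of called members ran from 7 to 12 for gefitinib in parental cells, 2 to 16 for WZ4002 in parental cells, 0 to 20 for WZ4002 against gefitinib, 10 to 16 in GR2, 2 to 12 in GR3, 1 to 4 in gefitinib-tolerant and 2 to 6 in WZ4002-tolerant cells. For vehicle cells against parental it ran from 0 to 1 in GR2, 2 to 12 in GR3, 5 to 8 in gefitinib-tolerant and 6 to 8 in WZ4002-tolerant cells. For differences between WZ4002 responses it ran from 0 to 18 (GR2 minus parental), 0 to 13 (GR3 minus parental), 0 to 1 (GR3 minus GR2), 0 to 9 (WZ4002-tolerant minus parental), 1 to 2 (GR2 minus WZ4002-tolerant) and 0 to 2 (GR3 minus WZ4002-tolerant), and stayed at 0 for the gefitinib responses. Fitting only the libraries of a comparison gave 3 called members for WZ4002 in parental cells, 2 in GR3, 20 in gefitinib-tolerant and 17 in WZ4002-tolerant cells, 21 for GR2, 21 for gefitinib-tolerant and 22 for WZ4002-tolerant vehicle cells, 0 for GR3 minus parental and 1 for the gefitinib responses. Estimating the spread without the parental WZ4002 and GR3 vehicle groups, an alternative chosen after seeing the data, gave 21 in gefitinib-tolerant and 19 in WZ4002-tolerant cells, 13, 21 and 24 for the vehicle cells of GR2, gefitinib-tolerant and WZ4002-tolerant cells, 1 for the gefitinib responses and 3 for GR2 minus WZ4002-tolerant. With no filter, WZ4002-tolerant cells had 5 and GR3 minus parental 0, and a pseudocount of 0.1 also gave 0 for the latter. The share of all genes under these alternatives is not given, so the shifts are not a result about these members. The cause of these shifts was not tested.

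The labels number the libraries 1 and 2 in every group, but with 2 libraries a group that number is not shown to pair them: deviations of same-numbered libraries correlated at 0.63 for gefitinib and vehicle in gefitinib-tolerant cells, at 0.36 in parental cells under gefitinib and in GR3 cells, and at -0.13 in parental cells under WZ4002, and ranged from -0.26 to 0.63 over 11 comparisons. With the replicate block 1 member was called in GR3 minus GR2 and 1 in GR3 minus WZ4002-tolerant, where 0 were called without it, and the other counts stayed within 1.5 times. A crossed block for WZ4002 in parental cells, chosen after seeing the data, left 4 members higher and 1 lower.

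Of 140 single-gene values, 134 kept direction and call under median-of-ratios scaling, 128 with no filter, 138 with a pseudocount of 0.1 and 138 with the block; of 588 with a library left out 389 did. Of 200 branch medians with a library left out, 37 moved by more than the spread between libraries, and 0 of 36 did under each of scaling, filter, pseudocount and block. ELOVL6 in GR3 cells under WZ4002, which was not called, took values of -0.018 under median-of-ratios scaling, 0.51 without GR3 vehicle library 1, -0.50 without GR3 vehicle library 2 and -0.11 without GR3 WZ4002 library 1. A planned count test on reads recovered from CPM was not run, since the deposited values are not counts. With 2 libraries a group, a difference that missed the threshold is not shown to be absent, and STARD4 lay too near 1 read for a comparison.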
